A study of Mus musculus with 32 samples.

Results

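Ncr1, the gene of the natural cytotoxicity receptor NKp46, was described here together with the 3 transmembrane signalling adaptors Tyrobp, Fcer1g and Hcst, the SLAM-family receptors Cd244a and Slamf7, and the SLAM adaptor Sh2d1b1, across cells sorted from the embryonic mouse thymus. The 7 genes were taken by name, a choice made with earlier results of these data known. All 7 were present in both deposited tables and passed the filter on low values in both. The tables hold 27326 different genes, of which 19404 are listed for embryonic day E15.5 and 26244 for embryonic day E19.5. The 32 libraries came from a reporter strain labelled 5x polychromILC mice, which every group shares. No other genotype and no treatment is given. At each stage, thymocytes labelled DN1, the first of the double-negative stages that lack CD4 and CD8, had been sorted by BCL11b and ID2 into BCL11b-ID2-, BCL11b-ID2+, BCL11b+ID2+ and BCL11b+ID2- gates. DN2 cells, the next stage by name, were sorted beside them, and at E19.5 so was a DN1 gate low for both, BCL11blowID2low. Each gate had 3 libraries, except DN2 at E15.5 with 2. Libraries carry the numbers M1, M2 and M3 at E15.5 and M1, M2 and M4 at E19.5. No label says that libraries of one gate came from different animals, so a p-value here measures only the spread between libraries, which may be technical.

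NKp46 is an activating receptor of natural killer (NK) cells and of some innate lymphoid cells (ILCs), and it has no signalling motif of its own. It reaches the cell surface with adaptor chains that carry tyrosine-based activation motifs, the Fc receptor gamma chain encoded by Fcer1g and the CD3 zeta chain encoded by Cd247, which recruit the kinases Syk and ZAP-70. DAP12, encoded by Tyrobp, does the same for other NK and myeloid receptors, whereas DAP10, encoded by Hcst, carries a binding motif for phosphoinositide 3-kinase and pairs with NKG2D. The SLAM receptors 2B4 (Cd244a) and CRACC (Slamf7) bind SAP-family adaptors inside the cell, among them EAT-2, encoded by Sh2d1b1. BCL11b is a transcription factor switched on at commitment to the T-cell lineage, and ID2 blocks E-protein transcription factors and marks innate lymphoid cells and their precursors.

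The members lie on 2 chromosomes (GRCm38, GENCODE vM21, all protein coding). On chromosome 7 are Ncr1 at 4337724 to 4345164 on the plus strand, Tyrobp at 30413760 to 30417585 on the plus strand and Hcst at 30417712 to 30419854 on the minus strand. The ends of Tyrobp and Hcst face each other across 126 bases. On chromosome 1 are Sh2d1b1 at 170277320 to 170286769 (plus), Fcer1g at 171229572 to 171234365 (minus), Cd244a at 171559193 to 171609746 (plus) and Slamf7 at 171632403 to 171653035 (minus). Cd244a and Slamf7 are neighbours 22656 bases apart, and 423 exon bases of Slamf7 are shared with the predicted gene Gm37787 on the other strand. No source used here tells whether the reads kept their strand, so reads over those bases cannot be assigned to either gene for certain.

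Promoters were read from RefSeq (GRCm38.p6) for 6 of the 7 members, Tyrobp being the other. The 250 bases before the RefSeq start (for Ncr1, the first of 2) are shown for 3 genes, the only ones with a motif match named below. Ncr1 was almost restricted to a single gate, and Hcst was high in both ID2-positive gates at E19.5. Sh2d1b1 was the member with the highest correlation with Ncr1 at both stages. Each is printed 5′ to 3′ on the strand of its gene. Capitals mark the motif matches named next, on either strand.
Ncr1, chr7:4337465-4337714, plus strand: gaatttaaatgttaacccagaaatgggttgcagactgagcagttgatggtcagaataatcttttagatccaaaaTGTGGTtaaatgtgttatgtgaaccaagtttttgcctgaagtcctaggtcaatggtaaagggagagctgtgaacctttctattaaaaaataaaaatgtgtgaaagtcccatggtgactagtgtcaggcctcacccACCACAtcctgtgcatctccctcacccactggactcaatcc
Hcst, chr7:30419855-30420104, minus strand: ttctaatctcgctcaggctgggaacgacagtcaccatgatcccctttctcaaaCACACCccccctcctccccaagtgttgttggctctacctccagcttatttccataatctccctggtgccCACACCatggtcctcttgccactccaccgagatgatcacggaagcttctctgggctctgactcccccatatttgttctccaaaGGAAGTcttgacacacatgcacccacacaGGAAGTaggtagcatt
Sh2d1b1, chr1:170277068-170277317, plus strand: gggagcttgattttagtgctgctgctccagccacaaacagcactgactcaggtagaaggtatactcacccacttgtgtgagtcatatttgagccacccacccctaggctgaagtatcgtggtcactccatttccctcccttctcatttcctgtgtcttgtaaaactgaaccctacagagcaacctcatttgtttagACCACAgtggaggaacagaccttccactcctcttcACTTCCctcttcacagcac

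The letters searched, on both strands, were the RUNX core TGTGGT, the Ets core GGAAGT, the T-box half-site GGTGTG and the E-box forms CAGCTG and CAGGTG. They occurred in 14.05, 19.74, 16.28, 13 and 17.22% of the 32851 RefSeq promoter windows of the same length. The Ncr1 window held 2 RUNX matches, at 176 to 171 and 41 to 36 bases before the start, and none of the other letters. The Hcst window held 2 Ets matches, at 45 to 40 and 16 to 11 bases before the start, and 2 T-box matches, at 197 to 192 and 128 to 123. The Sh2d1b1 window held 1 RUNX match at 54 to 49 and 1 Ets match at 19 to 14 bases before the start. No match overlapped another, and none of these letters occurred in the windows of Fcer1g, Cd244a and Slamf7. A match is a run of letters and not a measured binding site.

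Levels are DESeq-normalised read counts, made separately for each stage, so values are compared within a stage only. An E15.5 library held between 12030749 and 20709387 reads and an E19.5 library between 2599470 and 9498133. Of these reads, 50.8 to 80.0% at the earlier stage and 28.7 to 58.8% at the later came from mt-Rnr1 and mt-Rnr2, the ribosomal RNAs of mitochondria. In E15.5 libraries 3 reads equalled 1.68 to 4.91 normalised counts, in E19.5 libraries 1.77 to 5.34, and lower levels rest on 2 reads or fewer in a library. At E19.5 Bcl11b separated the gates only in part: BCL11b+ID2- libraries held 1469 to 2076 normalised counts, while BCL11b+ID2+ libraries, at 409 to 596, overlapped the 376 to 491 of BCL11blowID2low, and no BCL11b-negative library exceeded 39.2. Id2 stood at 961 or more in the ID2-positive gates, at 159 to 183 in BCL11blowID2low and at most at 32.1 elsewhere. At E15.5, library M1 of the BCL11b-ID2+ gate held 509 Bcl11b counts against 7.03 and 56.1 in its partners, and library M1 of the BCL11b+ID2+ gate held 84.97 Id2 counts against 284 and 2771, less than the 126 in library M1 of the ID2-negative gate BCL11b-ID2-. Against the DN labels, Cd4 stood at 0 in 4 of the 5 E15.5 gates and reached 176 ± 199 (SD, n = 3) at E19.5, in BCL11blowID2low, and Cd8a reached 437 ± 67.3 at E19.5, in BCL11b+ID2-. In sorted bulk RNA, fewer cells of a type and less RNA per cell cannot be told apart.

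**Figure D1:**
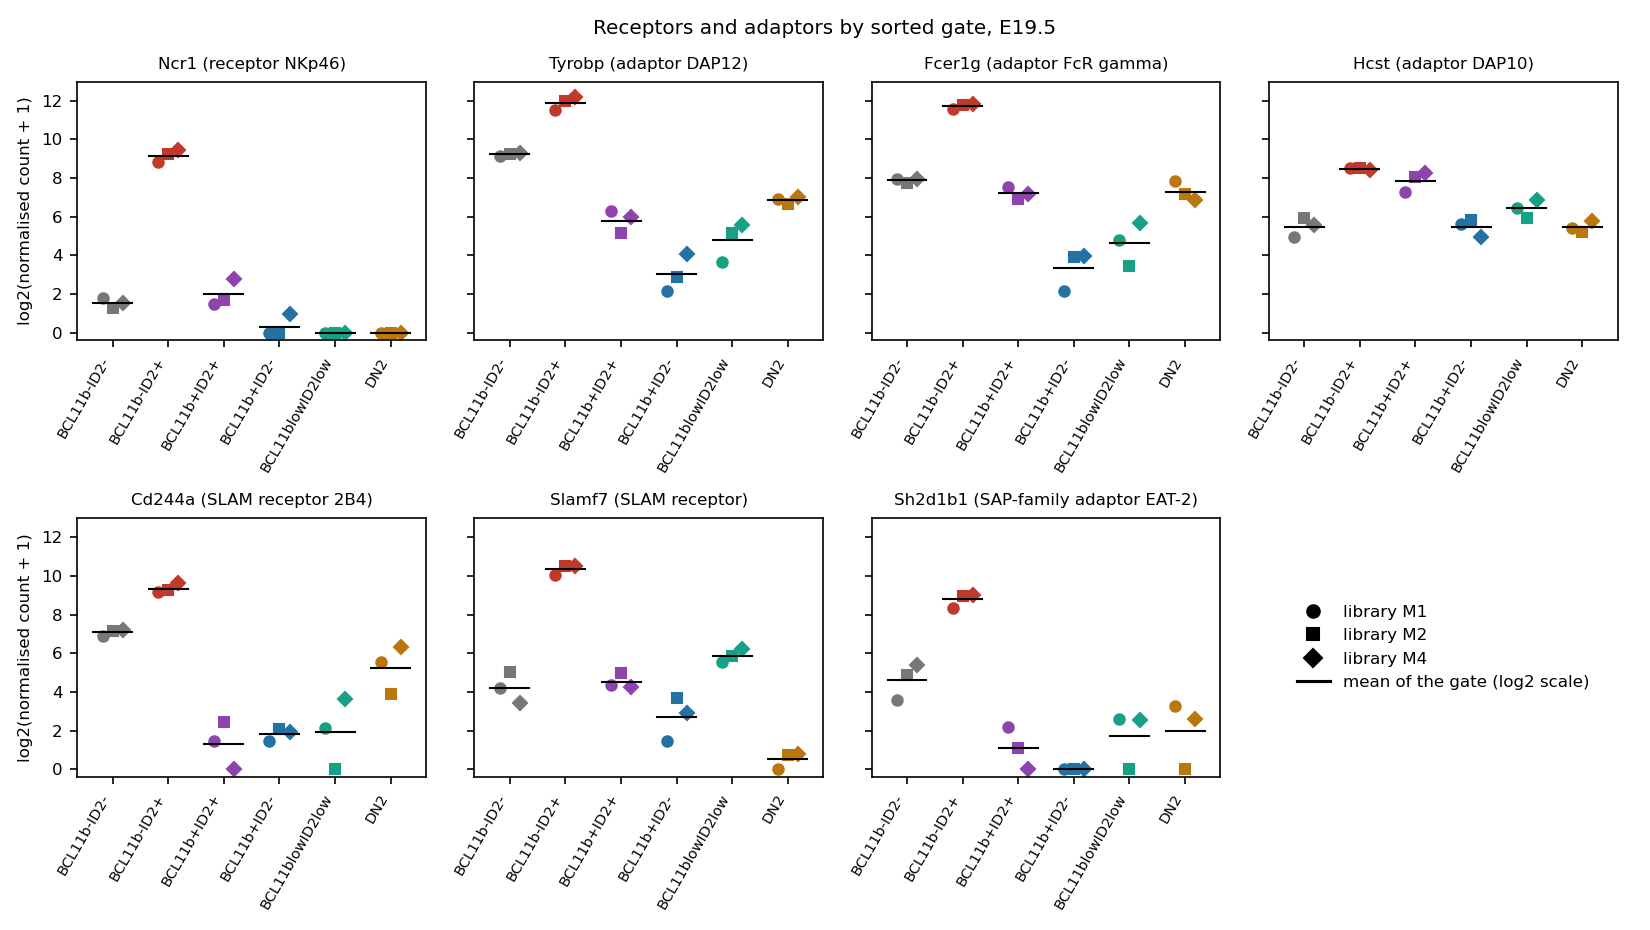
Log2 of the normalised count plus 1 of each member in every E19.5 library, by sorted gate; symbols give the library number and bars the mean of the gate on this scale. All 7 genes were highest in the BCL11b-ID2+ libraries, Ncr1 was near the floor in every other gate, and Hcst was also high in the BCL11b+ID2+ libraries.

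The main question of the sort is how transcripts go with ID2 at either BCL11b state, and the E19.5 libraries gave the clearer answer. Tests were made with limma on log2 of the value plus 1, where low genes show less than their full difference, and genes with a Benjamini-Hochberg adjusted p under 0.05 over all 13840 genes tested are said to rise or fall. From BCL11b-ID2- to BCL11b-ID2+, 6 of the 7 members rose and 0 fell, where 8.82% of all genes rose and 7.03% fell, and the median log2 difference was 3.83 over the members against -0.01 over all genes. From BCL11b+ID2- to BCL11b+ID2+, 3 of 7 rose and 0 fell, where 5.12% of all genes rose and 3.61% fell. Between the ID2-positive gates, 6 of 7 were lower in BCL11b+ID2+ than in BCL11b-ID2+, where 2.88% of all genes were lower and 3.16% higher. Between the ID2-negative gates, 4 of 7 were lower in BCL11b+ID2-, where 7.42% of all genes were lower and 7.51% higher. These comparisons share gates and are therefore not independent of each other. At both stages Ncr1 passed the filter on low values only through its BCL11b-ID2+ libraries, as no other library reached the filter value. Its place in the counts of members here and below therefore depends on that gate being high. With no filter the E19.5 calls of Ncr1 in BCL11b-ID2+ against BCL11b-ID2- and BCL11b+ID2+ remained (limma adjusted p = 3.3e-07 and 2.36e-06).

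At E15.5 the spread between libraries was wider, with SEs of the members between the BCL11b-negative gates of 1.70 to 1.99 on the log2 scale against 0.41 to 0.97 at E19.5, and fewer genes passed among the 10289 tested. From BCL11b-ID2- to BCL11b-ID2+, 2 of 7 members rose and 0 fell, where 0.321% of all genes rose and 0.146% fell, with a median of 3.64 over the members against -0.14 over all genes. Between the ID2-positive gates 1 of 7 was lower in BCL11b+ID2+, where 0.0389% of all genes were lower and 0.0389% higher. No member passed in limma between BCL11b+ID2+ and BCL11b+ID2- (0.719% of all genes in either direction), between the ID2-negative gates (0.00972%), between DN2 and BCL11b+ID2- (0%) or in the interaction of ID2 and BCL11b (0%). At an unadjusted p under 0.05 these last 4 comparisons held 1, 2, 0 and 1 members. Of the 10289 genes tested, 1285, 704, 663 and 662 were under that limit. DESeq2 called 1 member in each of these comparisons except DN2 against BCL11b+ID2-, and edgeR called 1 between the BCL11b-positive gates and 0 in the others. Over all genes DESeq2 called 1089, 335, 532 and 392 in the 4 comparisons.

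Ncr1 was found in the BCL11b-ID2+ gate and was at or near the floor elsewhere. At E19.5 the BCL11b-ID2+ libraries M1, M2 and M4 held 450.2, 597 and 698 normalised counts. BCL11b-ID2- libraries held 2.44, 1.45 and 1.92, and those of BCL11b+ID2+ held 1.78, 2.21 and 5.94. A value of 0.922 in 1 library was all that the BCL11b+ID2- gate held, and the BCL11blowID2low and DN2 libraries had no read. The lowest BCL11b-ID2+ library thus lay far above the highest of the other 15. The mean was 582 ± 125 (SD, n = 3) in BCL11b-ID2+ against 1.94 ± 0.496 in BCL11b-ID2-, 301-fold with a 95% counting interval of 144 to 857 from 6 reads in the lower gate, which covers counting error only (log2 difference 7.62 ± 0.80 SE, limma adjusted p = 3.53e-07). Against BCL11b+ID2+, at 3.31 ± 2.28 and 12 reads, it was 176-fold with an interval of 82.6 to 280 (adjusted p = 2.41e-06). Against the BCL11blowID2low gate, with no read, it was at least 487-fold higher, taking 3 reads over the gate as the floor. Below BCL11b-ID2+, neighbours in the order of means overlapped, except BCL11b-ID2- and BCL11b+ID2-, both of them under the value of 3 reads.

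The same gate stood apart for Ncr1 at E15.5. Its libraries M1, M2 and M3 held 562, 1233 and 1053 normalised counts, and no other library of that stage exceeded 2.84. The mean of 949 ± 347 (n = 3) lay 813-fold above the 1.17 ± 1.49 of BCL11b-ID2-, with a counting interval of 350.1 to 2520.1 from 5 reads (log2 difference 8.92 ± 1.77 SE, limma adjusted p = 0.0171). Against BCL11b+ID2+, with 2 reads in all, the ratio was 1297 with an interval of 436 to 13028 (adjusted p = 0.0354). The adjusted p of these 2 differences was 0.162 and 0.213 with edgeR on the recovered reads, and 1.26e-09 and 8.94e-09 with DESeq2. The second difference also missed the threshold with the library number as a block (0.0604), no filter (0.0701), library weights (0.0592) and only the gates compared (0.393). Leaving out 1 library ended the first call in 5 of 6 fits, all but that without library M1 of BCL11b-ID2+, and the second in 6 of 6. The groups did not overlap in either comparison.

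**Figure D2:**
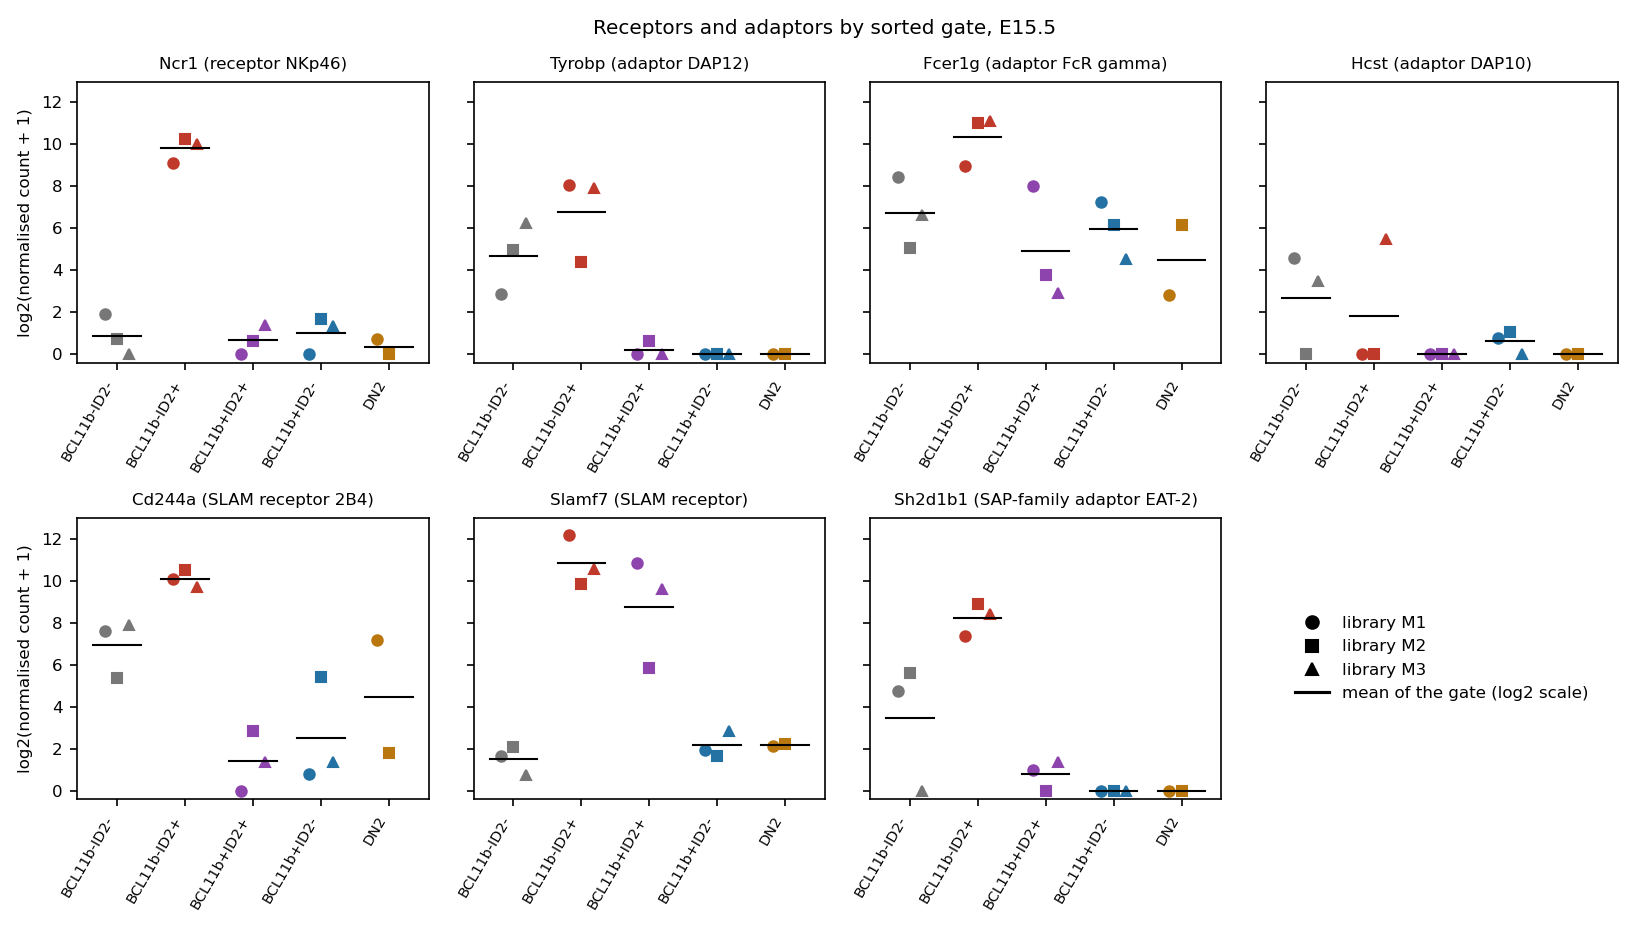
Log2 of the normalised count plus 1 of each member in every E15.5 library, by sorted gate; symbols give the library number and bars the mean of the gate on this scale. Ncr1 separated the BCL11b-ID2+ libraries from all others, Slamf7 was high in both ID2-positive gates, and Hcst was low everywhere.

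The adaptors with activation motifs were spread over more gates than Ncr1. Tyrobp at E19.5 stood at 2958, 4051 and 4771 normalised counts in the BCL11b-ID2+ libraries and at 561, 600.4 and 630.0 in those of BCL11b-ID2-. DN2 libraries held 122, 99.9 and 130.1, and BCL11b+ID2+ libraries 78.3, 34.3 and 61.3. BCL11blowID2low libraries held 11.6, 34.7 and 46.0, and BCL11b+ID2- libraries 3.47, 6.43 and 15.7. The first 3 gates in this order did not overlap, nor did DN2 and BCL11b+ID2+, while the gates below overlapped their neighbours. Tyrobp rose 6.58-fold with ID2 among BCL11b-negative cells (log2 difference 2.69 ± 0.48 SE, limma adjusted p = 0.000281). Among BCL11b-positive cells it rose 6.80-fold (2.77 ± 0.48, adjusted p = 0.000405), from 8.53 ± 6.37 to 58.0 ± 22.2 (n = 3), which no longer passed when the model held only the gates compared (adjusted p = 0.0520). The BCL11b-negative gates exceeded their BCL11b-positive counterparts by 67.7-fold with ID2 and by 70.0-fold without it (adjusted p = 1.07e-08 and 3.25e-09).

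Fcer1g at E19.5 had the same order at its top. The BCL11b-ID2+ libraries held 3010.4, 3478 and 3620.3 normalised counts, and those of BCL11b-ID2- held 249, 216 and 243. DN2 libraries held 228, 145 and 116, overlapping both BCL11b-ID2- and BCL11b+ID2+, whose libraries held 185, 119 and 144. BCL11blowID2low libraries held 26.6, 10.1 and 50.04, and BCL11b+ID2- libraries 3.47, 13.9 and 14.8. The BCL11b-ID2+ libraries again lay above all the others. Fcer1g rose 14.3-fold with ID2 among BCL11b-negative cells and 13.96-fold among BCL11b-positive cells (log2 differences 3.83 and 3.87, both ± 0.49 SE, limma adjusted p = 4.69e-06 and 9.95e-06). It was 22.5-fold lower in BCL11b+ID2+ than in BCL11b-ID2+ and 22.0-fold lower in BCL11b+ID2- than in BCL11b-ID2-.

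Both adaptors are also carried by myeloid and mast cells, so markers of these cells are given beside them. The macrophage, monocyte and granulocyte list of 12 genes summed to 2243 to 3370.2 per library in BCL11b-ID2- at E19.5, led by Mpo (myeloperoxidase) at 2051 ± 456 (n = 3), and to 200.4 to 328 in BCL11b-ID2+, where Fcgr1, S100a9 and Elane were at 0 and Mpo was at 1.302 ± 0.620. In BCL11b-ID2+ 4 of the 12 genes had a mean of at least 10, led by Ly6c2 at 178, against 9 of 12 in BCL11b-ID2-. The list summed to 371 to 847 in BCL11b+ID2+, with Itgam, S100a9 and Elane at 0. There 6 of the 12 genes had a mean of at least 10, led by Cd68 at 184. In BCL11b+ID2- the list summed to 6.94 to 141, with Lyz2, Fcgr1 and Elane at 0. Only 2 of the 12 genes had a mean of at least 10 there, led by Itgam at 38.2. The mast cell and basophil list of 9 genes summed to 1339 to 1616 in BCL11b-ID2+, with 7 of 9 genes at a mean of at least 10. It was led there by the protease gene Mcpt4 at 476 ± 86.7, while the IgE receptor chains Fcer1a and Ms4a2 stood at 5.16 ± 4.64 and 13.2 ± 14.6. In BCL11b-ID2- the same list summed to 451 to 634, led by Cpa3 at 378, with Mcpt4 and Tpsab1 at 0. The NK-cell and ILC1 list of 10 genes summed to 19285 to 24777 in BCL11b-ID2+ and to at most 6020.2 in any other gate. The part of myeloid or mast cells in the adaptor levels was not tested.

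At E15.5 the same adaptors varied more between libraries of a gate. Tyrobp held 270.2, 19.9 and 245 normalised counts in the BCL11b-ID2+ libraries M1, M2 and M3 and 6.39, 30.4 and 76.2 in those of BCL11b-ID2-, so the gates overlapped. All BCL11b-positive and DN2 libraries together held 1 Tyrobp read. Fcer1g held 495, 2077 and 2240.3 in BCL11b-ID2+ and 350.3, 33.0 and 99.1 in BCL11b-ID2-, without overlap. Its other 8 libraries ran from 6.15 to 263. Neither adaptor passed between the BCL11b-negative gates (log2 differences 2.095 ± 1.81 and 3.64 ± 1.77 SE, limma adjusted p = 0.812 and 0.546). The mast cell list summed to 1244 to 2880 in BCL11b-ID2- and 1140 to 3956 in BCL11b-ID2+, led in both by Cpa3 (1897 and 2020.1). Mcpt4, Cma1 and Tpsb2 were at 0 in BCL11b-ID2-, and Fcer1a and Mcpt8 in BCL11b-ID2+. Cpa3 also stood at 917 in BCL11b+ID2- and 1046 in DN2, where 7 of the 8 list genes present were at 0. In BCL11b-ID2- and in BCL11b-ID2+ 4 of these 8 genes had a mean of at least 10, against 1 of 8 in BCL11b+ID2- and in DN2. The myeloid list summed to 446 to 870 in BCL11b-ID2-, led by Mpo at 394, with S100a8 at 0. In BCL11b-ID2+ it summed to 125 to 411, led by S100a8 at 79.2, with Mpo at 0. In each of these gates 7 of the 9 myeloid list genes present had a mean of at least 10. The part of myeloid or mast cells in the adaptor levels was not tested at this stage either.

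Hcst, the DAP10 gene, was the member that BCL11b-positive and BCL11b-negative ID2+ cells had most nearly in common at E19.5. The BCL11b-ID2+ libraries held 361, 364 and 337 normalised counts and the BCL11b+ID2+ libraries 153, 268 and 307. BCL11blowID2low followed with 88.0, 60.4 and 116. The remaining gates ran from 30.4 to 60.04 and overlapped one another. Hcst rose 7.77-fold with ID2 among BCL11b-negative cells (log2 difference 2.98 ± 0.41 SE, limma adjusted p = 1.16e-05) and 5.36-fold among BCL11b-positive cells (2.38 ± 0.41, adjusted p = 0.000361). The ID2-positive gates did not overlap, yet their difference of -0.60 ± 0.41 did not pass (adjusted p = 0.569), and Hcst was the 1 member of 7 not called between these gates. At E15.5 Hcst was at 0 in 9 of 14 libraries, and its highest value was 43.5, in library M3 of BCL11b-ID2+. Libraries M1 and M2 of that gate were at 0, and those of BCL11b-ID2- held 22.7, 0 and 10.1, so the gates overlapped. No Hcst difference between gates passed there in limma.

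The SLAM receptors differed from each other. Cd244a, which encodes 2B4, was a gene of both BCL11b-negative gates. At E19.5 it held 572, 612 and 791 normalised counts in BCL11b-ID2+, 116, 143 and 148 in BCL11b-ID2- and 45.2, 14 and 79.2 in DN2, 3 gates without overlap. No library of the other gates exceeded 11.3. The difference between the BCL11b-negative gates, 4.86-fold, did not pass in limma (log2 difference 2.27 ± 0.84 SE, adjusted p = 0.0717), although it passed with a pseudocount of 8 (adjusted p = 0.00177), with edgeR (0.00831), with DESeq2 (0.000514), with library weights (0.0204) and with only the gates compared (2.75e-05). Cd244a was 319-fold lower in BCL11b+ID2+ than in BCL11b-ID2+ (counting interval 169 to 1219 from 5 reads) and 52.7-fold lower in BCL11b+ID2- than in BCL11b-ID2- (24.5 to 127 from 7 reads; limma adjusted p = 1.08e-06 and 0.000101).

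At E15.5 the gate means of Cd244a had the same order, but the gates below BCL11b-ID2+ overlapped their neighbours. BCL11b-ID2+ libraries held 1102, 1479 and 838 normalised counts against 195, 40.9 and 239 in BCL11b-ID2-, without overlap, and the difference did not pass (log2 difference 3.15 ± 1.99 SE, limma adjusted p = 0.694). BCL11b+ID2+ libraries held 0, 6.16 and 1.64, below every library of both BCL11b-negative gates. Library M1 of DN2, at 144, and library M2 of BCL11b+ID2-, at 42.4, stood above the others of their gates. Both also exceeded the 40.9 of BCL11b-ID2- library M2.

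Slamf7, which encodes CRACC, was instead low in BCL11b-ID2- cells. At E19.5 it held 1046, 1454 and 1474 normalised counts in BCL11b-ID2+ and only 17.1, 31.1 and 9.60 in BCL11b-ID2-. BCL11blowID2low libraries held 46.5, 57.0 and 73.4 and came second. BCL11b+ID2+ libraries held 19.6, 31.0 and 17.8, BCL11b+ID2- libraries 1.74, 11.8 and 6.46, and DN2 libraries at most 0.727. BCL11b-ID2+ and BCL11blowID2low overlapped no other gate. Slamf7 rose 68.8-fold with ID2 among BCL11b-negative cells (log2 difference 6.16 ± 0.66 SE, limma adjusted p = 4.55e-07). Among BCL11b-positive cells the values were 3.42-fold apart and did not pass in limma (1.86 ± 0.66, adjusted p = 0.0869), while edgeR and DESeq2 gave 0.0402 and 0.0204. It was 58.2-fold lower in BCL11b+ID2+ than in BCL11b-ID2+ (adjusted p = 2.77e-06).

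At E15.5 Slamf7 was high in both ID2-positive gates. BCL11b-ID2+ libraries M1, M2 and M3 held 4600.4, 937 and 1542 normalised counts, and BCL11b+ID2+ libraries 1834, 57.1 and 797. The highest of the latter, 1834, is from library M1, the one with less Id2 than an ID2-negative library, and without it the BCL11b+ID2+ values of 57.1 and 797 are still above those of all ID2-negative and DN2 libraries. The ID2-positive gates overlapped, and their difference of -2.097 ± 1.85 SE on the log2 scale did not pass (limma adjusted p = 0.768). No library of the ID2-negative gates or of DN2 exceeded 6.33. The highest BCL11b-ID2+ value, 4600.4, is from library M1 of that gate, which held 509 Bcl11b counts against 7.03 and 56.1 in its partners. Among BCL11b-negative cells Slamf7 rose 1159-fold with ID2, from 2.04 ± 1.32 to 2360 ± 1964, with a counting interval of 629 to 2612 from 9 reads (log2 difference 9.38 ± 1.85 SE, limma adjusted p = 0.0171), a call that was lost when any 1 of the 6 libraries was left out. Among BCL11b-positive cells the means were 235-fold apart, with an interval of 113 to 436 from 10 reads (6.61 ± 1.85), with an adjusted p of 0.0931 in limma, 0.0119 in edgeR and 3.07e-09 in DESeq2.

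Sh2d1b1, the EAT-2 gene, was highest in BCL11b-ID2+, next in BCL11b-ID2- and close to the floor elsewhere. At E19.5 the BCL11b-ID2+ libraries held 328, 502 and 514 normalised counts and the BCL11b-ID2- libraries 10.98, 28.2 and 40.3. No other library exceeded 8.48, and the BCL11b+ID2- libraries had no read. Sh2d1b1 rose 16.9-fold with ID2 among BCL11b-negative cells (log2 difference 4.18 ± 0.97 SE, limma adjusted p = 0.00393). It was 288-fold lower in BCL11b+ID2+ than in BCL11b-ID2+, with a counting interval of 151 to 2143 from 3 reads (adjusted p = 1.23e-05). Its close paralog Sh2d1b2 averaged 9.96 ± 8.36 in BCL11b-ID2+ at E19.5 and under 1 in every other gate. Reads that match both copies could be counted under either.

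At E15.5 Sh2d1b1 held 163, 475 and 347 normalised counts in BCL11b-ID2+ against 26.3, 48.8 and 0 in BCL11b-ID2-, and at most 1.64 elsewhere. The BCL11b-ID2+ libraries lay above all others. The difference between the BCL11b-negative gates did not pass (log2 difference 4.76 ± 1.88 SE, limma adjusted p = 0.378).

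**Figure D3:**
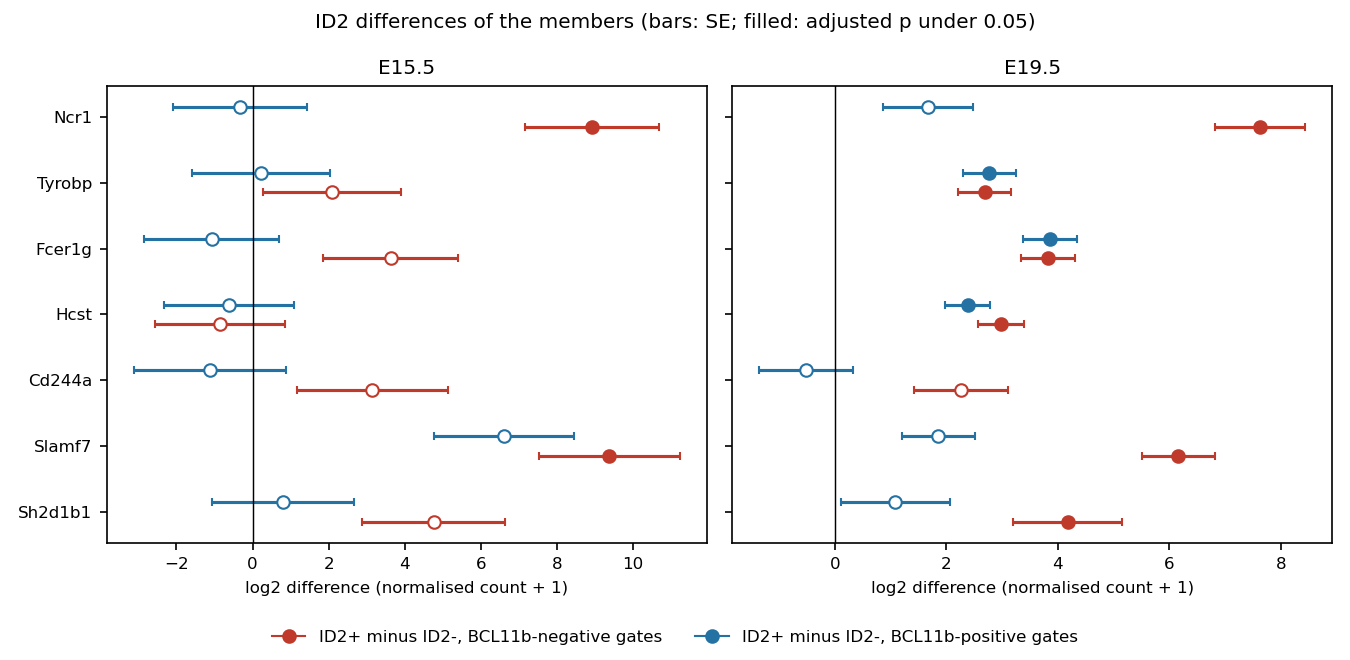
Log2 differences with SE between the ID2-positive and the ID2-negative gate for each member, among BCL11b-negative (red) and BCL11b-positive (blue) cells, at E15.5 and E19.5; filled points passed at an adjusted p under 0.05. At E19.5 the red and blue points of Tyrobp and Fcer1g lie almost on each other, while those of Ncr1 and Slamf7 lie apart, with interactions of -5.95 and -4.30.

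Whether the ID2 difference was alike at both BCL11b states was tested directly, as that of the BCL11b-positive gates less that of the BCL11b-negative gates. At E19.5 2 of 7 members were called, both negative, where 4.7% of all genes were negative and 4.57% positive. For Ncr1 the interaction was -5.95 ± 1.13 SE on the log2 scale (limma adjusted p = 0.00131), and for Slamf7 it was -4.30 ± 0.93 (adjusted p = 0.00421). That of Ncr1 rests on BCL11b-positive values of 12 and 1 reads, and edgeR gave it an adjusted p of 0.189 and DESeq2 0.0125. For Tyrobp and Fcer1g the interaction was 0.08 ± 0.67 and 0.04 ± 0.69, and for Hcst -0.60 ± 0.57, none of which passed. A pseudocount of 8 moved the first 2 to -0.67 each. Cd244a and Sh2d1b1 stood at -2.78 ± 1.19 and -3.09 ± 1.38 and did not pass (adjusted p = 0.163 and 0.183), but passed with a pseudocount of 8 (0.0300 and 0.000574). The estimate of Sh2d1b1, whose BCL11b-positive gates held 3 and 0 reads, was -0.68 with edgeR and -1.71 with DESeq2. At E15.5 the interaction of Ncr1 was -9.26 ± 2.502 and did not pass (adjusted p = 0.585 in limma, 0.000389 in DESeq2).

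DN2 cells at E19.5 had more of both activation-motif adaptors than the BCL11b+ID2- gate. In this comparison 3 members rose and 1 fell, where 6.77% of all genes rose and 9.41% fell. Tyrobp stood 13.7-fold higher, at 117 ± 15.6 against 8.53 ± 6.37 normalised counts (n = 3, log2 difference 3.84 ± 0.48 SE, limma adjusted p = 4.42e-06). Fcer1g stood 15.2-fold higher (adjusted p = 3.89e-06), and Cd244a 17.9-fold, with a counting interval of 7.94 to 42.3 from 7 reads (adjusted p = 0.00614). Slamf7 fell by 2.17 on the log2 scale (adjusted p = 0.0262), from levels of 6.66 ± 5.03 that lie close to the floor, and this call was lost without library M2 or M4 of BCL11b+ID2- or M1 of DN2, with a pseudocount of 8 and with only the gates compared. Hcst stood at 43.8 ± 9.59 in DN2 and 45.3 ± 13.5 in BCL11b+ID2-, a log2 difference of -0.02 ± 0.41. In DN2 the myeloid list summed to 203 to 305, with Mpo at 193 ± 70.9, against 6.94 to 141 in BCL11b+ID2- with Mpo at 1.54 ± 2.66. In DN2, as in BCL11b+ID2-, only 2 of the 12 list genes had a mean of at least 10. Adgre1, Fcgr1, S100a8, S100a9 and Elane were at 0 in DN2, so its sum was mostly Mpo. The part of myeloid cells in these differences was not tested.

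In the BCL11blowID2low gate at E19.5 Hcst was the most abundant of the set, at 122 ± 38.7 normalised counts per kilobase of merged exon (n = 3), before Tyrobp at 46.1 ± 26.3, Fcer1g at 33.1 ± 23.0 and Slamf7 at 12.9 ± 2.97. The other 3 members stood at 1.29 or less. Against BCL11b-ID2+ all 7 members were lower, where 5.35% of all genes were lower and 3.22% higher, with log2 differences from -9.16 (Ncr1) to -2.04 (Hcst). Against BCL11b-ID2- 4 members were lower and 0 higher, where 7.35% of all genes were lower and 6.7% higher. These were Cd244a (27.8-fold), Tyrobp (19.4-fold), Fcer1g (8.17-fold) and Sh2d1b1 (8.10-fold, 4.25 to 19.0 from 9 reads), with limma adjusted p = 0.000121, 6.49e-07, 4.65e-05 and 0.0492. The call of Sh2d1b1 was lost without library M2 or M4 of BCL11b-ID2- or M2 of BCL11blowID2low, and with no filter, TMM scaling, library weights or only the gates compared. Slamf7 was 3.06-fold higher in BCL11blowID2low without overlap, which did not pass in limma (1.69 ± 0.66, adjusted p = 0.0968) and passed in edgeR and DESeq2 (0.0103 and 0.00206). Against BCL11b+ID2+ 2 members were lower, Fcer1g (5.18-fold, adjusted p = 0.00213) and Hcst (2.75-fold, adjusted p = 0.0415), where 2.97% of all genes were lower and 1.46% higher. Without library M2 or M4 of BCL11b+ID2+, or M1 or M2 of BCL11blowID2low, Hcst no longer passed, nor did it with no filter, library weights or only the gates compared.

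Levels per kilobase of merged exon show which of these transcripts was most abundant in each gate. In BCL11b-ID2+ at E19.5 Tyrobp stood at 5887 ± 1368 normalised counts per kilobase (n = 3) and Fcer1g at 3855 ± 365, ahead of Hcst at 490.1 ± 20.8, Ncr1 at 378 ± 80.9, Slamf7 at 289 ± 52.8, Sh2d1b1 at 176 ± 40.9 and Cd244a at 135 ± 23.9. In BCL11b+ID2+ the first place went to Hcst, at 336 ± 111 per kilobase, before Fcer1g at 171 ± 38.0 and Tyrobp at 86.9 ± 33.3. Hcst also ranked first in BCL11b+ID2-, at 62.7 ± 18.7, as it did in BCL11blowID2low. At E15.5 Fcer1g ranked first in BCL11b-ID2+, at 1835 ± 1103 per kilobase, and Tyrobp ranked 4, at 268 ± 207. Slamf7 ranked first in BCL11b+ID2+ at that stage, at 196 ± 195.

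Other genes of these pathways were read from 3 lists. Among 9 further SLAM-family and SAP-family genes, 6 were tested at E19.5, and from BCL11b-ID2- to BCL11b-ID2+ 1 rose and 1 fell, where 8.82% of all genes rose and 7.03% fell (median log2 difference 0.05 against -0.01 over all genes). Ly9, a SLAM receptor, rose from 64.8 ± 4.56 to 216 ± 30.4 normalised counts (limma adjusted p = 0.0097), and Slamf6, another, fell from 38.4 ± 24.2 to 2.05 ± 2.37 (adjusted p = 0.00423). From BCL11b+ID2- to BCL11b+ID2+ 0 rose and 1 fell, where the shares of all genes were 5.12 and 3.61%. This was Slamf1, from 381 ± 50.2 to 41.5 ± 13.8 (adjusted p = 0.00201). These counts of 0 or 1 are too small to set the list apart from all genes. Between the ID2-positive gates Slamf6 and Slamf1 were higher and Cd48, the ligand of 2B4, was lower in BCL11b+ID2+ (629.7 ± 163 to 263 ± 115, adjusted p = 0.01), where 3.16% of all genes were higher and 2.88% lower. In BCL11b+ID2- Slamf1, Ly9 and Sh2d1a, the SAP gene, were higher than in BCL11b-ID2- and Cd48 was lower (7.51 and 7.42% of all genes), so Sh2d1a and the EAT-2 gene Sh2d1b1 were called in opposite directions there. At E15.5 4 of the 9 were tested and 0 were called between the BCL11b-negative gates.

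Receptors that pair with the 3 adaptors moved in both directions. Of 17 listed, 9 were tested at E19.5, and from BCL11b-ID2- to BCL11b-ID2+ 4 rose and 2 fell, where 8.82% of all genes rose and 7.03% fell. Those that rose were Klrk1, the NKG2D gene and partner of DAP10, from 3.86 ± 3.35 to 1469 ± 223 normalised counts (limma adjusted p = 2.76e-08), Klrd1 and Klrc2 of the CD94/NKG2 receptors, and Pilrb1. Those that fell were the dendritic-cell receptor Siglech, from 56.3 ± 9.79 to 0.197 ± 0.341, and the myeloid lectin Clec4e, from 53.5 ± 12.8 to 0.399 ± 0.691. Siglech was at 0 in BCL11b+ID2+, BCL11b+ID2- and BCL11blowID2low. It passed the filter on low values only through BCL11b-ID2-, so its place among the 2 that fell depends on that gate being high. From BCL11b+ID2- to BCL11b+ID2+ 4 rose and 0 fell, where 5.12% of all genes rose and 3.61% fell. Klrk1 rose from 3.05 ± 1.81 to 120 ± 3.60 (adjusted p = 9.2e-05), beside the Fc receptors Fcgr1, at 23.0 ± 8.13 against 0, and Fcgr3, and the lectin Clec4n. Fcgr1 is also on the myeloid marker list, which summed to 371 to 847 in BCL11b+ID2+ and to 6.94 to 141 in BCL11b+ID2-. At E15.5 3 of the 17 were tested and Klrk1 rose in BCL11b-ID2+ over BCL11b-ID2-, as did 0.321% of all genes (2689 ± 867 against 2.52 ± 1.72, adjusted p = 0.0305).

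Kinases and scaffolds downstream changed in both directions. All 21 listed were tested at E19.5. From BCL11b-ID2- to BCL11b-ID2+ 3 of 21 rose and 1 fell, near the 8.82 and 7.03% of all genes (median 0.45 against -0.01 over all genes). The CD3 zeta gene Cd247 rose from 9.38 ± 6.87 to 156 ± 31.0 normalised counts and Zap70 from 7.90 ± 6.29 to 150.5 ± 12.4 (limma adjusted p = 5.34e-08 and 9.8e-07), and Pik3cd, a phosphoinositide 3-kinase subunit, rose by 1.27 on the log2 scale. Plcg1, a phospholipase of the T-cell receptor pathway, fell from 210 ± 85.5 to 9.99 ± 6.09 (adjusted p = 8.24e-08), and its relative Plcg2 stood at 345 ± 63.8 and 287 ± 41.1. From BCL11b-ID2- to BCL11b+ID2- 6 rose (Cd247, Zap70, Lat, Lcp2, Fyn and Pik3cd) and 5 fell (Syk, Plcg2, Lyn, Lat2 and Vav3), where 7.51% of all genes rose and 7.42% fell. From BCL11b+ID2- to BCL11b+ID2+ Lyn and Inpp5d rose and Cd247, Lat and Lck fell, where 5.12% of all genes rose and 3.61% fell. In the interaction of ID2 and BCL11b 2 of 21 were positive (Lyn and Plcg1) and 6 negative (Zap70, Cd247, Lck, Lat, Ptpn6 and Pik3cd). Of all genes 4.57% were positive and 4.7% negative. That of Cd247 was -6.89 ± 0.54 SE (limma adjusted p = 1.7e-08). Unlike Ncr1, Cd247 fell with ID2 among BCL11b-positive cells.

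**Figure D4:**
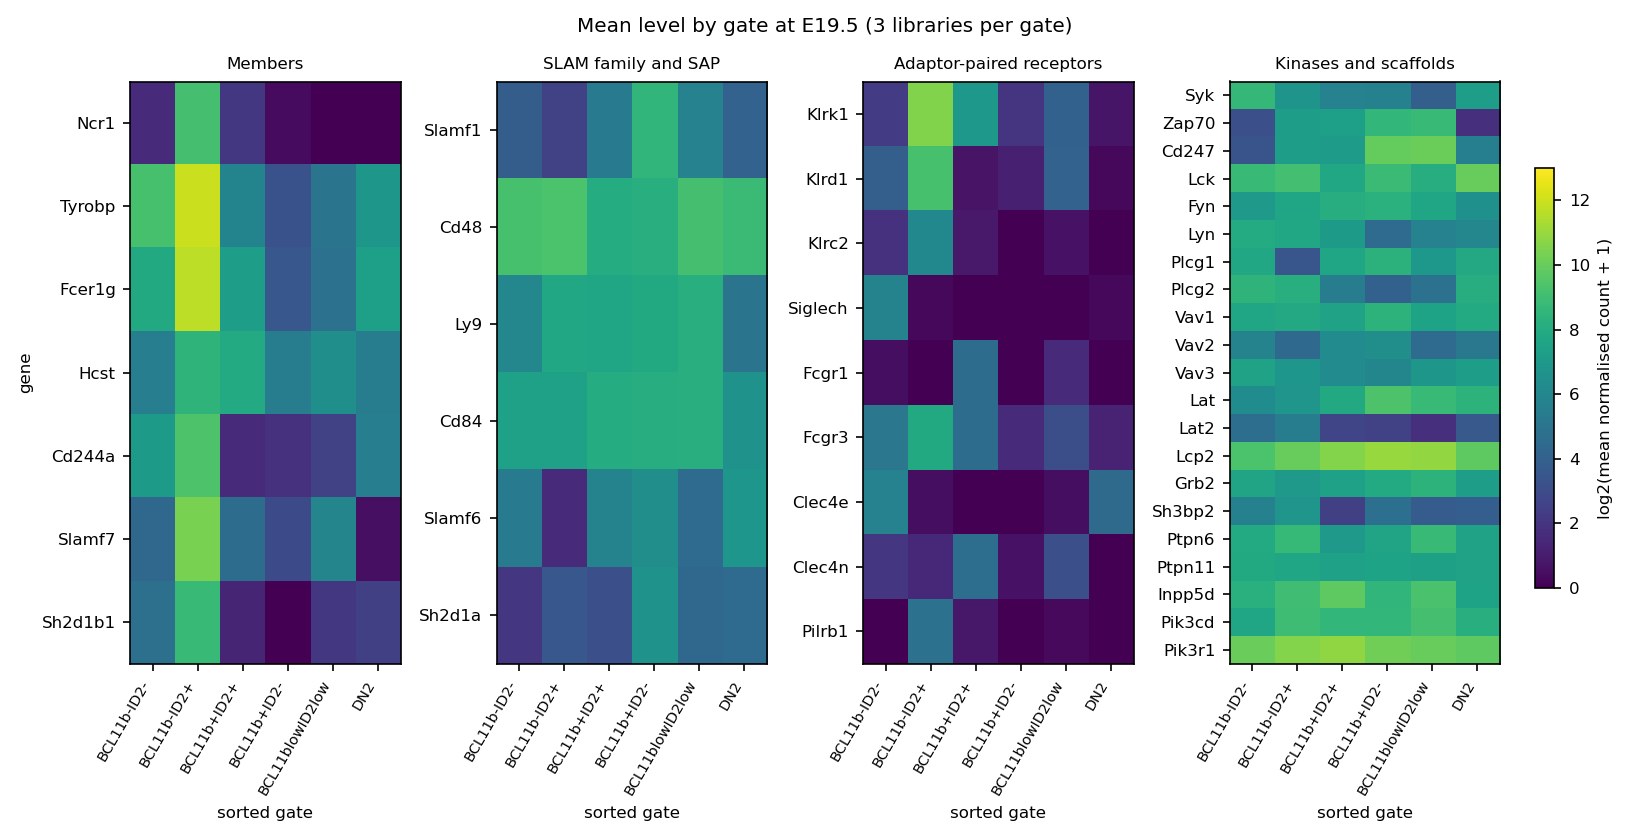
Mean level by gate at E19.5, as log2 of the mean normalised count plus 1 (colour), for the 7 members and for the tested genes of the 3 pathway lists. The members are brightest in the BCL11b-ID2+ column, where Klrk1 reaches 1469, whereas Cd247 and Lcp2 are brighter in BCL11b+ID2- and BCL11blowID2low and Plcg1 is darkest in BCL11b-ID2+.

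Members also varied together over libraries, as a description and with no test, since the libraries share gates. Over the 18 E19.5 libraries Pearson's r of the log2 values was 0.94 between Tyrobp and Fcer1g, 0.91 between Cd244a and Sh2d1b1 and 0.90 between Tyrobp and Sh2d1b1. It was 0.84 between Ncr1 and each of Slamf7, Sh2d1b1 and Fcer1g. Hcst was the loosest, at 0.23 with Cd244a and 0.44 with its genomic neighbour Tyrobp. Over the 14 E15.5 libraries the highest value was 0.88, between Ncr1 and Sh2d1b1. Tyrobp and Hcst reached 0.50 there, and Slamf7 and Cd244a, neighbours on chromosome 1, only 0.20.

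The genes most like Ncr1 and Tyrobp were ranked in the same way, among genes with a mean of at least 100 in their highest gate and leaving out the members. At E19.5 the 5 nearest to Ncr1 were Kir3dl1, an inhibitory receptor (r = 0.981 over 18 libraries), the granzyme gene Gzmc (0.981), the interferon-gamma gene Ifng (0.980), Klrb1c, the NK1.1 gene (0.972), and the chemokine gene Ccl1 (0.965). At E15.5 they were Cd200r4 (0.979 over 14 libraries), Cd200r2 (0.967), Neurl3 (0.959), Cdk14 (0.958) and Klrb1c (0.954), so Klrb1c was on both lists. The 5 nearest to Tyrobp at E19.5 were Cdh1 (0.933), the E-cadherin gene, Ifitm1 (0.926), Itgax (0.912), the CD11c gene, Car2 (0.910) and Ptger3 (0.908). At E15.5 they were Tmem18 (0.971), Aoah (0.918), Stk11 (0.893), Pcid2 (0.883) and Car2 (0.872), with Car2 on both lists. Each of these 20 places had its highest mean in BCL11b-ID2+.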

How the data were processed

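RNA from 32 flow-sorted populations was amplified and sequenced. Kits are those given in the labels' protocols (RNeasy Plus micro, Ovation RNA-seq System V2, Ovation Ultralow). Per the submitters' processing notes, Trim Galore 0.50, STAR 2.6.0a, GRCm38 and DESeq2 1.18.1 were used. The deposited values are a normalised signal (DESeq-normalised read counts per the labels), 1 table per stage. Dividing each column by its value of 1 read gave whole reads for 100% of values, within 0.01 reads. E15.5 columns were matched to samples by the barcode number in the descriptions. The tables held 0 columns of other samples, and 12 and 13 identifiers had no symbol.

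A gene was tested where 3 or more libraries of its stage reached a value of 10. All libraries of a stage entered 1 limma 3.58.1 model (R 4.3.3, trend, robust) on log2 of the value plus 1, with Benjamini-Hochberg adjustment over all genes tested and a threshold of 0.05. There were 15 comparisons. Alternatives were a pseudocount of 8, no filter, TMM scaling, edgeR 4.0.16 and DESeq2 1.42.0 on the recovered reads, only the gates compared, the library number as a block, library weights and leaving out each library. Folds are ratios of mean values, with a floor of 3 reads over a gate and 95% counting intervals where the lower gate had 1 to 12 reads. Depth limits low levels as stated with the value of 3 reads.

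The members and lists were chosen with earlier results of these data known. Members are named in each comparison, list genes where they passed, and for Ncr1 and Tyrobp the 5 genes of highest Pearson r with a mean of at least 100 in their highest gate (no predicted, mitochondrial or ribosomal genes). Values printed for list genes that did not pass are given as values. Markers other than the lists named were not used for a result. Coordinates are from GENCODE vM21 and promoters from RefSeq GRCm38.p6.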

Additional observations from a re-analysis of the deposited data

Results flagged for a closer look

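The ID2 difference of 2 members was not the same in BCL11b-positive and BCL11b-negative gates at E19.5, by a test of the difference itself in limma. The ID2 difference of the BCL11b-positive gates less that of the BCL11b-negative gates was -5.95 on the log2 scale for Ncr1 and -4.30 for Slamf7. In each case the BCL11b-ID2+ libraries were the high ones. The Ncr1 interaction rests on BCL11b-positive values near the floor, and edgeR gave it an adjusted p of 0.189. Ncr1 also passed the filter on low values only through its BCL11b-ID2+ libraries, which enter this difference. With no filter the limma adjusted p was 0.00173 for Ncr1 and 0.00677 for Slamf7. The BCL11b-positive gates differed in Bcl11b itself, at 409 to 596 in BCL11b+ID2+ and 1469 to 2076 in BCL11b+ID2-.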

How the results depend on the processing

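At E19.5, 38 calls of members in the 9 comparisons were followed. DESeq2 and the replicate block kept 38, edgeR, TMM scaling and a pseudocount of 8 kept 37, library weights and no filter 36, and only the gates compared 34, with 0 reversed. Leaving out single libraries ended 3 of them, as named in the report. Of the 3 calls at E15.5, DESeq2, TMM scaling and a pseudocount of 8 kept 3, edgeR 1 and the other settings 2, and all 3 were lost without at least 1 library. The cause of these changes was not tested.

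Counts of members called moved as follows, and counts over all genes moved with the setting too. At E19.5 edgeR called 1949 genes and library weights 3184 between the BCL11b-negative gates, against 2194 in the main model. For BCL11blowID2low against BCL11b+ID2+ only the gates compared gave 341 and DESeq2 808, against 613. Between the BCL11b-positive gates edgeR called 954, against 1208. A change in the count of members is therefore not read as a result about them. Between the ID2-positive gates at E15.5, 1 became 2 with a pseudocount of 8, 5 with DESeq2 and 0 with no filter, edgeR, the replicate block, library weights or only the gates compared. At E15.5 edgeR gave 1 instead of 2 between the BCL11b-negative gates and 1 instead of 0 between the BCL11b-positive gates, and DESeq2 gave 1 instead of 0 between the BCL11b-positive gates, between the ID2-negative gates and in the interaction. At E19.5 the interaction went from 2 to 4 with a pseudocount of 8 and to 1 with edgeR, and BCL11blowID2low against BCL11b+ID2+ from 2 to 4 with DESeq2 and to 1 with no filter, library weights or only the gates compared. Smaller moves at E19.5 were from 6 to 7 between the BCL11b-negative gates with a pseudocount of 8, edgeR, DESeq2, library weights or only the gates compared, each adding Cd244a, and from 3 to 4 with edgeR or DESeq2 and to 2 with only the gates compared between the BCL11b-positive gates. DN2 went from 4 to 3 with a pseudocount of 8 or only the gates compared and to 5 with DESeq2, and the ID2-negative gates from 4 to 5 with DESeq2. BCL11blowID2low against BCL11b-ID2- went from 4 to 5 with a pseudocount of 8, edgeR or DESeq2 and to 3 with no filter, TMM scaling, library weights or only the gates compared, and against BCL11b+ID2+ from 2 to 3 with edgeR. Without single libraries the counts ran from 0 to 1 between the BCL11b-negative gates and 0 to 0 between the ID2-positive gates at E15.5. At E19.5 they ran from 3 to 4 between the BCL11b-positive gates, for DN2 and for BCL11blowID2low against BCL11b-ID2-, and from 1 to 2 for BCL11blowID2low against BCL11b+ID2+. In the other comparisons leaving out single libraries did not move them.

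The uncalled E19.5 interactions near 0 changed sign. That of Tyrobp was -0.67 with a pseudocount of 8, -0.12 with edgeR, -0.092 with DESeq2 and -0.13 with library weights, and that of Fcer1g -0.67, -0.17, -0.14 and -0.28. Without single libraries Tyrobp ran from -0.36 to 0.59 and Fcer1g from -0.55 to 0.35.

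Counts over all genes at E15.5 depended on the setting. The 48 genes called between the BCL11b-negative gates ran from 4 to 414, the 74 between the BCL11b-positive gates from 2 to 1089, the 8 between the ID2-positive gates from 0 to 634 and the 1 between the ID2-negative gates from 0 to 335, the highest each time with DESeq2. DESeq2 also called 532 genes for DN2 and 392 in the interaction, where limma called 0. At E19.5 edgeR on the recovered reads called 1949 genes between the BCL11b-negative gates, where limma called 2194. At E19.5 BCL11blowID2low against BCL11b+ID2+ went from 613 to 341 with only the gates compared and to 373 without library M4 of BCL11b+ID2+, and BCL11blowID2low against BCL11b-ID2+ from 1186 to 768 without library M2 of BCL11b-ID2+.

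No label says what the library numbers share, and the correlations of same-numbered libraries were too low to treat them as pairs, at -0.05 to 0.04 at E15.5 and at 0.002 to 0.13 at E19.5, with 0 of 26 and 1 of 45 pairs over 0.1. A weak likeness by number was present at E19.5, where the median was 0.05 against -0.02 for other numbers and 17 of 18 libraries were closest to their own number (10 of 14 at E15.5). The block changed 1 call of a member, that of Ncr1 between the ID2-positive gates at E15.5 (adjusted p = 0.0604). Depth limits Ncr1, Sh2d1b1 and Cd244a in the BCL11b-positive gates, where they stood near the value of 3 reads.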
